A study of Saccharomyces cerevisiae with 6 samples.

Results

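The genes described here encode the nuclear-coded respiratory chain and ATP synthase of the budding yeast Saccharomyces cerevisiae. They were chosen by name, complex by complex, and not by any measured value. The 39 genes, out of 7127 features in the deposited count table, comprise 3 NADH dehydrogenases (NDI1, NDE1 and NDE2), the 4 subunits of succinate dehydrogenase (complex II), 9 subunits of the cytochrome bc1 complex (complex III), cytochrome c (CYC1), 8 subunits of cytochrome c oxidase (complex IV) and 14 subunits of ATP synthase. All 39 had enough reads to be tested. Transcript levels of these genes were compared between 3 wild-type libraries and 3 snf2Δ libraries, to ask how they stood in cells without Snf2, the ATPase of the nucleosome remodeller Swi-Snf.

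Both genotypes were in HHY221, a parent strain for anchor-away work, and the study examined Swi-Snf in metabolic regulation. Its strain list gives W303 MATa with TOR1-1, with fpr1Δ::loxP-LEU2-loxP and, at the RPL13A locus, with rpl13a::RPL13A-2×FKBP12-loxP for the wild type, and the same alleles with snf2Δ::natMX6 for the mutant. Thus wild type here also lacks FPR1 and carries the TOR1-1 allele and the tagged Rpl13a. Cells of both groups were at log phase in the rich glucose medium YPD at 30 °C, no rapamycin was given, and RNA was enriched for poly(A). The labels number the samples but do not say that they were separate cultures, so a p-value here reflects the spread among these samples, which may be technical.

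Budding yeast has no proton-pumping complex I. Instead, Ndi1 oxidises NADH on the matrix side of the inner mitochondrial membrane, and Nde1 and Nde2 oxidise cytosolic NADH on its outer side. Electrons from these enzymes and from succinate dehydrogenase pass through ubiquinone to complex III, then through cytochrome c to complex IV, and the proton gradient that results drives ATP synthase. On glucose, yeast mainly ferments, and respiratory genes are expressed below the levels reached on non-fermentable carbon. Many of them are activated by the Hap2/3/4/5 complex, which binds the sequence CCAAT and whose Hap4 subunit carries the activating domain.

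The pentamer CCAAT was searched on both strands in the 500 bases before the start codon of each gene, in the R64 reference genome with its RefSeq annotation. It was found before 35 of the 39 genes (89.7%), against 62.4% of the 6000 genes with a window of that length. The windows of NDE2, CYT1, CYC1 and COX4 did not contain these letters. The copy nearest the start codon lay at a median of 173 bases before it (range 5 to 335), and 34 genes had a copy between 100 and 300 bases before it. The 30-base stretches printed here show the pentamer before the 9 genes that both held it and passed the test described further on. For each gene the copy between 100 and 300 bases before the start codon and nearest to it is given, and for COR1, which has none there, the nearest copy. Each is read along the strand of its gene, and capitals mark the given copy, as CCAAT or its complement ATTGG. The COR1 stretch also holds the copy 346 bases before the start codon, which is left in small letters.
NDI1 (chrXIII:30017-30046, - strand, 223 bases before the start codon): tattcattcggaCCAATcatatgaaggcat
NDE1 (chrXIII:556719-556748, - strand, 257 bases before): aagacaacgctcATTGGcctgttcttgatt
COR1 (chrII:135838-135867, - strand, 335 bases before): accaatgaaatgCCAATaaattaacagtgt
SDH3 (chrXI:179508-179537, + strand, 143 bases before): aggtccattctgATTGGctgcggtagcccg
SDH4 (chrIV:817705-817734, + strand, 229 bases before): ataagcattgagCCAATcgctgctgttttt
COX7 (chrXIII:779272-779301, - strand, 158 bases before): aggcagtacttgATTGGctacgccgcgcat
COX9 (chrIV:334526-334555, - strand, 143 bases before): tactgcaacctgATTGGcccgctaccacga
COX12 (chrXII:225360-225389, - strand, 201 bases before): tcataacattgaCCAATcaattttcagaaa
ATP15 (chrXVI:29934-29963, + strand, 129 bases before): cttttatacgaaCCAATgaaatttgatcct

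The first 3 of these belong to genes that fell in snf2Δ and the other 6 to genes that rose, so the pentamer stood before genes of both kinds. Of the 4 genes that fell, 3 had it, as did 6 of the 6 that rose and 26 of the 29 that did not pass. A longer form, ACCAATNA, which contains the pentamer and was added after the data were seen, was found before 18 genes (46.2%), against 8.60% of all windows. The median log2 fold change was 0.04 for the 18 with it and 0.14 for the 21 without it. Over all genes tested the order was the other way, at -0.004 for the 476 with it and -0.026 for the 5023 without it. The other motifs searched were ATTGTT, the core of the site of the repressor Rox1 (21 genes, 53.8%, against 48.9%), CGGGTAA, bound by Reb1 (7 genes, 17.9%, against 10.1%), and the Hap1 consensus, a spaced pair of CGG triplets. The last was found before 1 of the 39 genes, QCR6 (2.56%, against 0.350%). A match is only a match of letters and does not show binding. Only these exact patterns were searched, so a window without a match may still hold a variant site.

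Libraries held 4134546 to 6708036 counts. SNF2 itself had 363, 298 and 365 counts in wild type and 6, 9 and 7 in snf2Δ, so each library matched its label. The first principal component, with 76.5% of the variance, parted the genotypes, and the second, with 9.98%, set wild-type replicate 3 apart. Wild-type replicate 3 also stood higher for the genes described here. Their median level in it was 0.25 higher on the log2 scale than the mean of the other wild-type libraries, against 0.02 over all genes. The weight of single genes in the second component was not examined. Wild-type replicate 3 was the highest of the wild-type libraries for 31 of the 39 genes and replicate 2 the lowest for 36. In snf2Δ, replicate 2 was the highest for 30 genes and replicate 3 the lowest for 27. Where a call of a named gene is lost or gained without one of these libraries, both values are given. The 6 genes used as markers of MATa cells were expressed in every library (1428 to 2356 CPM in sum in wild type, 1467 to 1664 in snf2Δ). The lowest of them, ASG7, had 7.02 to 16.2 CPM. The sum hides changes in both directions: in the test described further on 1 of the 6 rose (16.7%, against 16.7% of all genes) and 2 fell (33.3%, against 17.9%). Leaving out 1 library gave 0 to 3 rises and 1 to 2 falls. The α-factor genes MFALPHA1 and MFALPHA2 did not pass 0.691 CPM in any library. Of the other α-cell markers, STE3 stayed at or under 3.10 CPM and SAG1 had 38.8 to 49.3 CPM.

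The 39 genes held both rises and falls, and the median size of their change was near that of all genes. Genes were taken to have risen or fallen by an adjusted p under 0.05 from edgeR's quasi-likelihood test with Benjamini-Hochberg adjustment over all 5641 genes tested. The 6 that rose were SDH3, SDH4, COX7, COX9, COX12 and ATP15 (15.4%, against 16.7% of all genes tested), and the 4 that fell were NDI1, NDE1, COR1 and CYT1 (10.3%, against 17.9%). In either direction 34.6% of all genes passed. Under upper-quartile scaling 10 of the 39 rose and 3 fell, and all genes split into 1194 rises and 804 falls in place of 942 and 1010. Without wild-type replicate 3 there were 10 rises and 6 falls, without wild-type replicate 1 there were 3 and 3, and with wild-type replicate 2 left out 3 and 5. Leaving out snf2Δ replicates 1, 2 and 3 in turn gave 4 and 3, 3 and 4, and 7 and 3. The counts over all genes moved as well. There were 692 rises and 774 falls without wild-type replicate 1, 719 and 808 without replicate 2, and 1188 and 1305 without replicate 3. Without snf2Δ replicates 1, 2 and 3 in turn there were 809 and 825, 684 and 742, and 780 and 825.

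The median log2 fold change of the 39 genes was 0.07, and -0.02 over all genes tested. In size, the median change was 0.27 on the log2 scale for these genes and 0.32 for all genes.

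A change above 1 in size on the log2 scale was measured for 1 of the 39 genes, CYT1, and for 11.0% of all genes. None of the 39 passed the stricter rule, which adds a log2 fold change over 2 in either direction and which 2.82% of all genes passed, and 17 of the 39 had an unadjusted p under 0.05 in edgeR's test, as did 2541 of all 5641 genes (45%). The libraries of the genotypes did not overlap for 16 genes, 8 higher and 8 lower in snf2Δ, where 22.4% of all genes were higher and 24.1% lower without overlap (46.6% in all). For 34 genes the 95% interval of the change lay within a 2-fold change either way. Of the 29 genes that did not pass, 28 had such an interval, NDE2 being the exception, and the median half-width of the interval was 0.32 on the log2 scale. In sum the 39 genes made up 1.24% of the scaled counts in wild type and 1.17% in snf2Δ.

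Levels are given in CPM, read counts relative to a library size that was scaled by TMM (a trimmed mean of log ratios between libraries), and, where genes are compared with each other, in CPM per kilobase of coding length. In these bulk samples, fewer cells with a transcript and less of it per cell cannot be told apart. All 39 matched the RefSeq annotation of R64. Within that annotation no member overlaps another gene, and none has a copy of 95% identity or more over 50% of its length. The 1080 counted features that did not match it were not checked for overlap with the members.

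**Figure D1:**
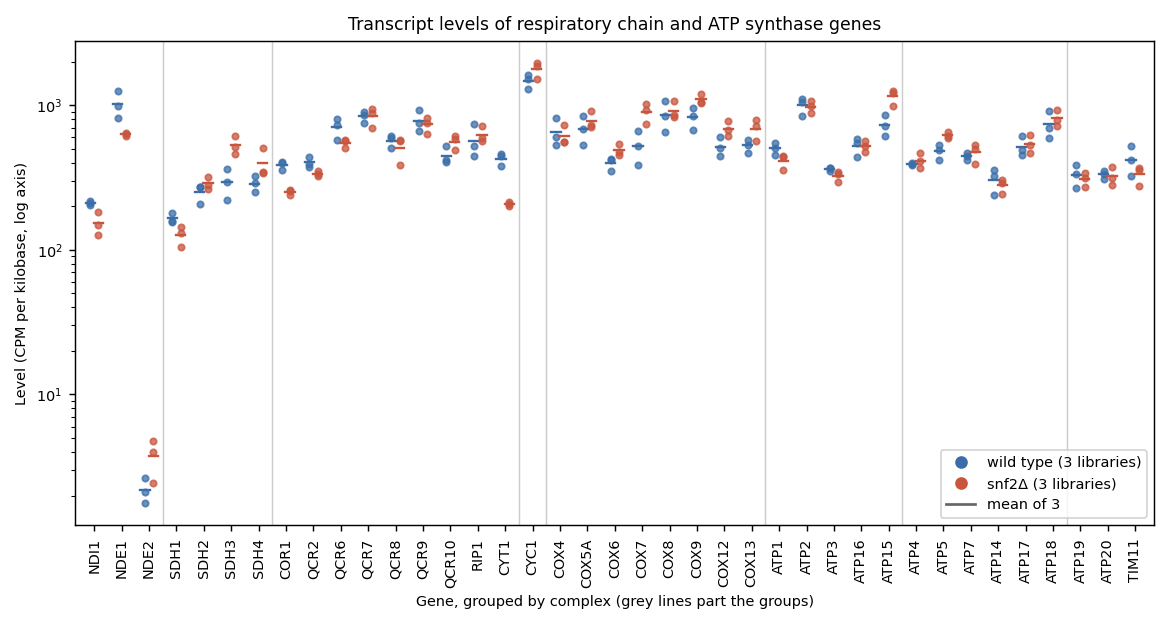
Level of each of the 39 genes in CPM per kilobase of coding length (log axis) in 3 wild-type libraries (blue points) and 3 snf2Δ libraries (red points), with lines at the mean of 3 and grey lines between complexes. NDE2 lies far below every other gene, CYC1 and NDE1 have the highest means in wild type, and the points of the genotypes overlap for most genes.

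The NADH dehydrogenases held the greatest range of levels and 2 of the 4 falls (66.7% of these 3 genes, against 17.9% of all genes). NDE1 (YMR145C, chromosome XIII, 554793 to 556475), the main external enzyme, had 1670, 1373 and 2117 CPM in the wild-type libraries and 1087, 1036 and 1066 CPM in the snf2Δ libraries. All snf2Δ libraries lay below all wild-type libraries and close together, while wild type was spread, with replicate 3 the highest. The change of NDE1 was -0.69 ± 0.17 (log2, SE, n = 3 against 3; edgeR adjusted p = 0.00433). NDI1 (YML120C, chromosome XIII, 28266 to 29807), the matrix-side enzyme, had 325, 316 and 338 CPM in wild type and 197, 283 and 229 CPM in snf2Δ. Here wild type was even and the mutant uneven, with no overlap. NDI1 fell by 0.47 ± 0.15 on the log2 scale (edgeR adjusted p = 0.0253), a call that was lost without wild-type replicate 1 (adjusted p = 0.0684), snf2Δ replicate 1 (adjusted p = 0.116) or snf2Δ replicate 3 (adjusted p = 0.0804).

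NDE2 (YDL085W, chromosome IV, 303211 to 304848), the second external enzyme, was the least abundant of the 39 genes. It had 4.34, 3.47 and 2.89 CPM in wild type and 7.83, 6.57 and 3.98 CPM in snf2Δ, so that the third mutant library fell inside the wild-type range. Its change of 0.80 ± 0.34 on the log2 scale did not pass (edgeR adjusted p = 0.0787), and it passed without snf2Δ replicate 3 (1.02, adjusted p = 0.0379). NDE1 and NDE2 share 65.0% of their aligned coding sequence. The ratio of NDE1 to NDE2, per kilobase, was 375, 385 and 714 in wild type and 135, 154 and 261 in snf2Δ. The ratios did not overlap (log2 difference -1.42, two-sided exact permutation p = 0.10, the smallest that 3 against 3 can give, adjusted p = 0.10 over the 3 isoform ratios). Summed over the 3 genes, the level was 2050 ± 385 CPM (SD, n = 3) in wild type, against 1305 ± 18.0 CPM in snf2Δ.

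In complex II both membrane anchors rose, 2 of the 4 genes (against 16.7% of all genes). Neither catalytic subunit passed, so none fell (against 17.9%). In the fit corrected for GC content and length SDH3 alone rose, SDH4 did not pass and the catalytic subunit SDH1 fell. SDH3 (YKL141W, chromosome XI, 179667 to 180263), the cytochrome b subunit that anchors the enzyme in the membrane, had 175, 132 and 218 CPM in wild type and 309, 366 and 273 CPM in snf2Δ. Every mutant library was above every wild-type library. SDH3 rose by 0.85 ± 0.18 on the log2 scale (edgeR adjusted p = 0.00150), more than any other of the 39 genes that passed. SDH4 (YDR178W, chromosome IV, 817950 to 818495), the other anchor, had 159, 136 and 176 CPM in wild type and 184, 278 and 188 CPM in snf2Δ. The groups were apart, but by little, with 1 high library in the mutant. SDH4 rose by 0.46 ± 0.17 (log2; edgeR adjusted p = 0.0437), and the call was lost without wild-type replicate 1 (adjusted p = 0.0890), wild-type replicate 2 (adjusted p = 0.149) or snf2Δ replicate 2 (adjusted p = 0.299).

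The catalytic subunits of complex II did not pass with all libraries, TMM scaling and no correction for GC content and length. SDH1, the flavoprotein that oxidises succinate, had 347, 299 and 306 CPM in wild type and 201, 278 and 253 CPM in snf2Δ, lower without overlap (log2 fold change -0.38, edgeR adjusted p = 0.0621). It passed as a fall without wild-type replicate 3 (-0.41, adjusted p = 0.0385) and with scaling by total counts (-0.39, adjusted p = 0.0401). SDH1 also fell in the fit corrected for GC content and length (-0.46, edgeR adjusted p = 0.0132). SDH2, the iron-sulphur subunit, had a change of 0.20 (adjusted p = 0.314) with overlapping libraries. Levels within the complex spread further in each mutant library than in any wild-type library. Per kilobase, the highest of the 4 genes exceeded the lowest 1.63-, 1.61- and 2.30-fold in the wild-type libraries and 4.97-, 4.24- and 3.47-fold in the snf2Δ libraries. SDH3 stood at 293 ± 72.1 CPM per kilobase (SD, n = 3) in wild type, where its libraries overlapped with those of SDH4, and SDH1 at 165 ± 13.5, below the other 3. In snf2Δ the means were 530 ± 79.1 and 127 ± 20.6. These spreads were picked out after the values were seen and are given with no test.

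No gene of complex III rose (against 16.7% of all genes) and 2 of the 9 fell (22.2%, against 17.9% of all genes). Without wild-type replicate 3, 2 rose and 3 fell. CYT1 (YOR065W, chromosome XV, 447439 to 448368), cytochrome c1, had 426, 356 and 412 CPM in wild type and 192, 186 and 201 CPM in snf2Δ. Neither group was wide, and the lowest wild-type library was far above the highest mutant library. CYT1 fell by 1.05 ± 0.14 on the log2 scale (edgeR adjusted p = 2.2e-05). COR1 (YBL045C, chromosome II, 134143 to 135516), a core subunit on the matrix side, had 547, 488 and 559 CPM in wild type and 332, 359 and 352 CPM in snf2Δ, again with a clear gap. COR1 fell by 0.61 ± 0.14 (log2; edgeR adjusted p = 0.00250).

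The 7 other subunits of complex III had log2 fold changes between -0.35 and 0.33. QCR2, the second core subunit, had 486, 436 and 417 CPM in wild type and 387, 361 and 370 CPM in snf2Δ, lower without overlap but not past the threshold (log2 fold change -0.26, edgeR adjusted p = 0.152). The values were -0.35 for QCR6, the acidic hinge subunit (adjusted p = 0.0815), and 0.33 for QCR10 (adjusted p = 0.0947). RIP1, the Rieske iron-sulphur protein, had 0.13 (adjusted p = 0.599), and QCR8 and QCR9 had -0.16 and -0.08. Without wild-type replicate 3, QCR6 passed as a fall (-0.48, edgeR adjusted p = 0.00688), and QCR10 (0.45, adjusted p = 0.0129) and RIP1 (0.37, adjusted p = 0.0479) as rises. QCR10 also rose under upper-quartile scaling (0.41, adjusted p = 0.0385). QCR7 was the most abundant of the 9 per kilobase, with 330, 289 and 347 CPM in wild type and 338, 363 and 268 CPM in snf2Δ, fully overlapping (log2 fold change 0.01, 95% interval -0.31 to 0.32).

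CYT1 moved down the order of levels within the complex. In wild type it stood at 428 ± 39.7 CPM per kilobase, the seventh of 9, with QCR10, QCR2 and COR1 next to it and each overlapping its neighbour. In snf2Δ it was the lowest, at 207 ± 8.11 CPM per kilobase, below COR1 (253 ± 10.3) and QCR2 (337 ± 11.8), with no overlap between these neighbours. The ratio of the highest to the lowest of the 9 genes was 2.16, 2.12 and 2.47 in wild type and 4.28, 4.74 and 3.24 in snf2Δ. The summed level of the complex was 2804 ± 217 CPM in wild type, against 2311 CPM in snf2Δ (0.824 of wild type).

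CYC1 (YJR048W, chromosome X, 526335 to 526664) encodes iso-1 cytochrome c, the main form of the electron carrier between complexes III and IV. It had 499, 429 and 538 CPM in wild type and 618, 650 and 498 CPM in snf2Δ. The third mutant library lay inside the wild-type range, and the change of 0.27 ± 0.15 on the log2 scale did not pass (edgeR adjusted p = 0.188). Per kilobase CYC1 was the most abundant of the 39 genes in both genotypes, at 1480 ± 168 and 1783 ± 241 CPM per kilobase.

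The nuclear-coded subunits of complex IV held 3 of the 6 rises (37.5% of these 8 genes, against 16.7% of all genes). None fell (against 17.9%). In the fit corrected for GC content and length only COX7 rose and none fell. The log2 fold change was positive for 7 of the 8, the exception being COX4 (above 0 under upper-quartile scaling). In the corrected fit COX5A and COX8 were below 0. The 8 genes are 180 to 468 bases long. Over all protein-coding genes tested, the median change was 0.15 under 300 bases and -0.105 at 1000 bases or more. COX7 (YMR256C, chromosome XIII, 778945 to 779127), a small subunit of the membrane part, had 95.03, 70.4 and 122 CPM in wild type and 170, 187 and 136 CPM in snf2Δ. The gap between the groups was narrow beside the spread inside wild type. COX7 rose by 0.78 ± 0.18 on the log2 scale (edgeR adjusted p = 0.00372). COX9 (YDL067C, chromosome IV, 334217 to 334396), another small membrane subunit, had 151, 122 and 172 CPM in wild type and 191, 216 and 188 CPM in snf2Δ. COX12 (YLR038C, chromosome XII, 224921 to 225172), which faces the intermembrane space, had 127, 113 and 151 CPM against 170, 197 and 155 CPM. For both the groups were apart, for COX12 by little.

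COX9 rose by 0.42 ± 0.15 and COX12 by 0.41 ± 0.15 on the log2 scale, close to the threshold (edgeR adjusted p = 0.0401 and 0.0407). The call of COX9 was lost without any single library but wild-type replicate 3 (adjusted p between 0.0619 and 0.207). That of COX12 was lost without wild-type replicate 1 (edgeR adjusted p = 0.120), wild-type replicate 2 (adjusted p = 0.176), snf2Δ replicate 1 (adjusted p = 0.0696) or snf2Δ replicate 2 (adjusted p = 0.186). COX13 lay just outside the threshold at 0.39 (adjusted p = 0.0602), and COX6 at 0.30 (adjusted p = 0.107). COX13 passed without wild-type replicate 3 (0.46, edgeR adjusted p = 0.0244), without snf2Δ replicate 3 (0.51, adjusted p = 0.0268), under upper-quartile scaling (0.47, adjusted p = 0.0250) and in the DESeq2 Wald test (0.40, adjusted p = 0.0438), and COX6 under upper-quartile scaling (0.38, adjusted p = 0.0395). COX5A, COX8 and COX4 had 0.19, 0.10 and -0.08, with overlapping libraries.

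The most and the least abundant complex IV genes in wild type, per kilobase, were COX8 and COX6. COX8 had 199, 155 and 255 CPM in wild type and 203, 254 and 197 CPM in snf2Δ. COX6 had 187, 156 and 189 CPM against 201, 240 and 214 CPM, higher in the mutant without overlap. The ratio of the highest to the lowest gene of complex IV was 2.00, 1.94 and 2.55 in wild type and 2.36, 2.23 and 2.183 in snf2Δ, which overlapped. In sum the 8 genes had 1581 ± 296 CPM in wild type, against 1891 ± 244 CPM in snf2Δ, and the libraries overlapped.

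Of the 14 ATP synthase genes, 1 rose (7.14%, against 16.7% of all genes) and none fell (against 17.9%). Their median log2 fold change was -0.02. ATP15 (YPL271W, chromosome XVI, 30079 to 30267), the epsilon subunit of the F1 central stalk, had 137, 115 and 163 CPM in wild type and 230, 239 and 187 CPM in snf2Δ. The lowest mutant library was above the highest wild-type library. ATP15 rose by 0.66 ± 0.16 on the log2 scale (edgeR adjusted p = 0.00362). The other F1 genes did not pass: -0.29 for ATP1 (alpha, adjusted p = 0.150), -0.03 for ATP2 (beta), -0.16 for ATP3 (gamma) and -0.01 for ATP16 (delta).

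ATP2, the most abundant ATP synthase gene in wild type, had 1612, 1297 and 1707 CPM in wild type and 1356, 1642 and 1519 CPM in snf2Δ. Per kilobase it stood at 1002 CPM and ATP15 at 731 CPM in wild type, whereas in snf2Δ ATP15 stood at 1158 CPM and ATP2 at 980 CPM. The ratio of ATP15 to ATP2 was 0.688, 0.722 and 0.775 in wild type and 1.38, 1.18 and 1.00 in snf2Δ, a pair chosen after the values were seen and given with no test. ATP14, a subunit of the peripheral stalk and the least abundant of the 14 per kilobase, had 121, 90.01 and 133 CPM against 109, 113 and 91.5 CPM.

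None of the 6 stator and F0 genes and none of the 3 dimer genes passed with all libraries and TMM scaling. ATP5, the oligomycin sensitivity protein at the top of the stalk, had the change nearest to the threshold, with 312, 266 and 342 CPM in wild type and 392, 414 and 380 CPM in snf2Δ, higher without overlap (log2 fold change 0.37, edgeR adjusted p = 0.0564). It passed as a rise without wild-type replicate 3 (0.45, edgeR adjusted p = 0.0122), with scaling by total counts (0.36, adjusted p = 0.0281) or the upper quartile (0.45, adjusted p = 0.0198), and in the DESeq2 Wald test (0.38, adjusted p = 0.0305). ATP4, ATP7, ATP14, ATP17 and ATP18 lay between -0.13 and 0.14. The subunits that hold ATP synthase dimers together, ATP19, ATP20 and TIM11, had -0.08, -0.04 and -0.34. TIM11 passed as a fall without wild-type replicate 2 (-0.49, edgeR adjusted p = 0.0345). The summed level of the 14 genes was 4633 ± 528 CPM in wild type, against 4593 ± 325 CPM in snf2Δ.

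**Figure D2:**
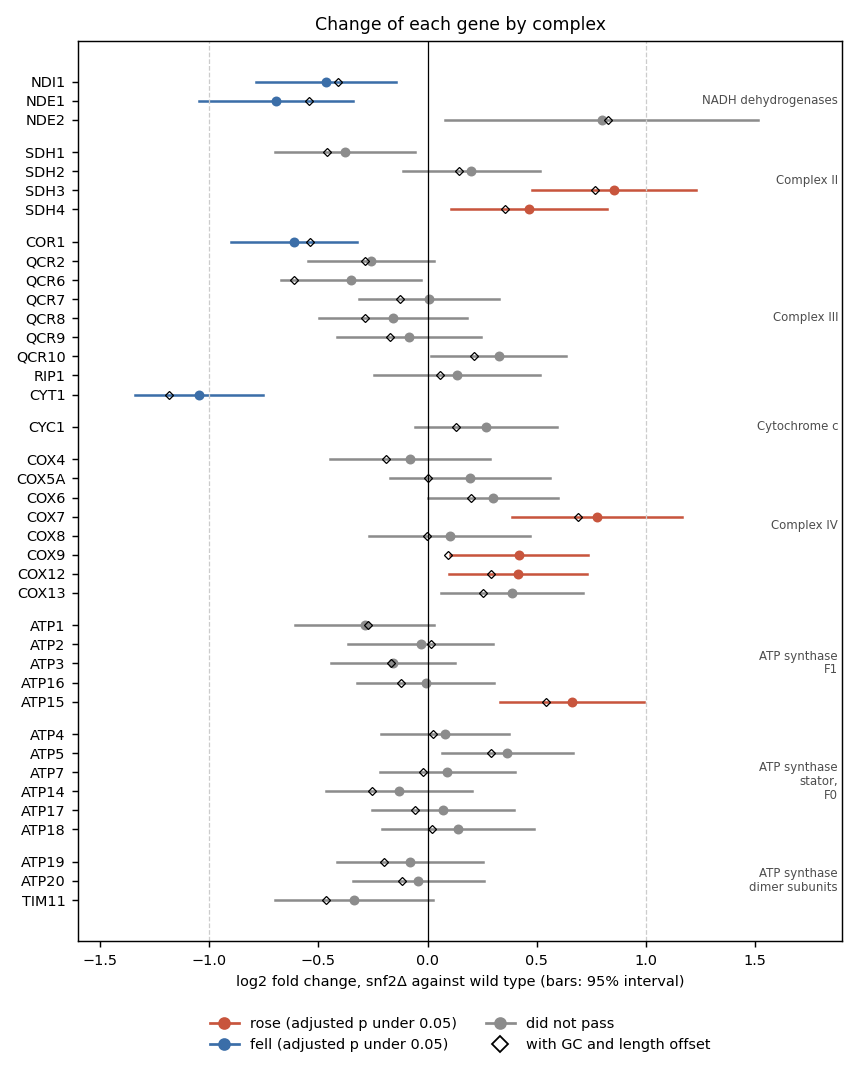
Log2 fold change of each gene, snf2Δ against wild type (points), with its 95% interval (bars) by complex, red where the gene rose, blue where it fell and grey where it did not pass an adjusted p of 0.05, and open diamonds for the fit corrected for GC content and length. Dashed lines mark a 2-fold change. CYT1 at -1.05 is the only filled point beyond a dashed line, the ATP synthase genes lie around 0 apart from ATP15, and the 3 red points of complex IV have no blue counterpart.

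Changes went with coding length. Across the 39 genes, Spearman's rho between log2 fold change and coding length was -0.39, a value across genes, which share libraries and are not independent replicates. Of the 11 genes under 300 bases, 4 rose and none fell. Of the 8 genes of 1000 bases or more, none rose and 3 fell. The same direction was seen over all 5499 protein-coding genes tested (rho -0.23), of which 26.7% rose and 11.8% fell under 300 bases, and 13.3% rose and 22.4% fell at 1000 bases or more.

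A fit with an offset per library for GC content and length left 3 rises (SDH3, COX7 and ATP15) and gave 7 falls, with rho at -0.01 over all genes and -0.27 over the 39. In that fit 18.3% of all genes rose and 17.2% fell. COX9 went from 0.42 to 0.09 on the log2 scale and no longer passed, and SDH4 and COX12 no longer passed at 0.36 and 0.29. SDH1 (-0.46, edgeR adjusted p = 0.0132), QCR6 (-0.61, adjusted p = 0.00794) and TIM11 (-0.47, adjusted p = 0.0215) passed as falls. NDI1, NDE1, COR1 and CYT1 fell in both fits, as they did in the fit with upper-quartile scaling except for NDI1.

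**Figure D3:**
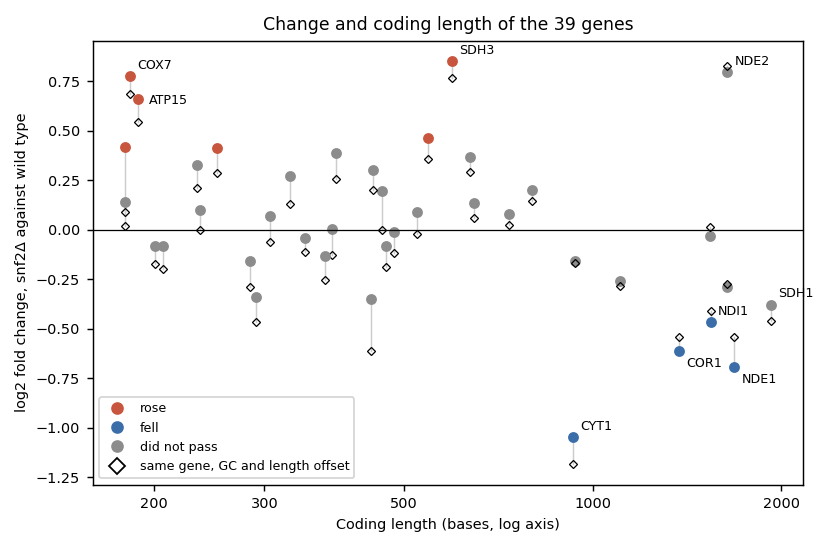
Log2 fold change of the 39 genes, snf2Δ against wild type, plotted over coding length in bases (log axis). Filled points are the uncorrected fit (red rose, blue fell, grey did not pass) and open diamonds the fit with the offset for GC content and length. No red point lies above 597 bases (SDH3) and no blue point below 930 bases (CYT1). COX9, at 180 bases, moves from 0.42 to 0.09.

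Respiratory enzymes also have alternative isoforms and small partners that are not among the 39 genes. Of 9 such genes 2 rose (22.2%, against 16.7% of all genes) and 5 fell (55.6%, against 17.9%), and 3 passed the stricter rule, as did 2.82% of all genes. There was 1 rise with the offset and without snf2Δ replicate 1 or 2. COX5B, the isoform of COX5A known from low oxygen, had 49.0, 52.5 and 38.8 CPM in wild type and 21.4, 22.8 and 13.7 CPM in snf2Δ and fell by 1.27 ± 0.20 on the log2 scale (edgeR adjusted p = 1.55e-04). CYC7, the minor cytochrome c, had 56.2, 51.8 and 39.4 CPM against 22.6, 36.8 and 19.4 CPM and fell by 0.90 ± 0.22 (log2; adjusted p = 0.00474). Both minor isoforms were lower in every mutant library, whereas the main isoforms did not pass.

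The ratio of main to minor isoform was higher in every mutant library for both pairs. The ratio of COX5A to COX5B per kilobase was 6.38, 4.60 and 9.87 in wild type and 15.4, 18.4 and 23.7 in snf2Δ (log2 difference 1.51). That of CYC1 to CYC7 was 9.20, 8.57 and 14.1 against 28.4, 18.3 and 26.6 (log2 difference 1.21). Neither overlapped between the genotypes, and each had a two-sided exact permutation p of 0.10, the smallest possible, and 0.10 adjusted over the 3 ratios. COX5A and COX5B share 67.4% of their aligned coding sequence and CYC1 and CYC7 79.2%.

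COX26, a small protein bound to complex IV in supercomplexes, had 65.1, 46.1 and 52.8 CPM in wild type and 5.07, 8.98 and 2.49 CPM in snf2Δ, and fell by 3.28 ± 0.29 (log2; edgeR adjusted p = 3.06e-07). SDH9, a minor paralogue of SDH1 with 77.0% identity to it, had 1.45, 2.25 and 3.05 CPM against 12.2, 17.3 and 13.9 CPM and rose by 2.65 ± 0.31 (log2; adjusted p = 7.24e-06). These groups were well apart. The inhibitor of ATP hydrolysis INH1 fell by 0.66 ± 0.17 (adjusted p = 0.00795, or 0.0526 without snf2Δ replicate 3), and its homologue STF1 rose by 0.60 ± 0.17 (adjusted p = 0.0142, or 0.0510 and 0.0769 without snf2Δ replicates 1 and 2, and 0.0526 in the fit with the offset). STF2, a small soluble protein first described with these inhibitors, had 242, 258 and 212 CPM against 56.2, 78.6 and 32.1 CPM and fell by 2.09 ± 0.23 (adjusted p = 3.02e-06).

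Among the regulators, HAP4 showed a larger change than any of the 39 genes. It had 441, 453 and 413 CPM in wild type and 65.9, 104.7 and 58.2 CPM in snf2Δ. HAP4 fell by 2.51 ± 0.19 on the log2 scale (edgeR adjusted p = 5.98e-08). HAP2, a DNA-binding partner, fell by 0.63 ± 0.16 (adjusted p = 0.00693), while HAP3 (0.12, adjusted p = 0.675) and HAP5 (-0.52, adjusted p = 0.0566) did not pass. HAP5 did pass as a fall with the offset for GC content and length (-0.76, edgeR adjusted p = 0.0118) and without wild-type replicate 3 (-0.70, adjusted p = 0.00697). ROX1, the repressor of hypoxic genes, rose by 0.64 ± 0.15 (adjusted p = 0.00414), and MOT3, which represses some of the same genes, fell by 0.47 ± 0.15 (adjusted p = 0.0276, lost without wild-type replicate 1 at 0.117, without snf2Δ replicate 1 at 0.131 and under upper-quartile scaling at 0.0632). The heme-dependent activator HAP1 had -0.20 (adjusted p = 0.320). Of these 7 regulators, then, 1 rose (14.3%, against 16.7% of all genes) and 3 fell (42.9%, against 17.9%), or 1 and 4 with the offset. Whether the level of HAP4 bears on the 39 genes was not tested.

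Factors that assemble the complexes are to be read against the 16.7% of all genes that rose and the 17.9% that fell. Of 4 complex II assembly genes 2 rose and none fell: SDH6 from 9.69 ± 1.17 to 27.5 ± 4.39 CPM (log2 fold change 1.502, edgeR adjusted p = 4.34e-05) and SDH8 from 44.4 ± 1.95 to 106 ± 8.09 CPM (1.26, adjusted p = 2.47e-06). Of 12 genes for complex III assembly and cytochrome maturation none rose and 2 fell (16.7%, close to the share of all genes), or 4 with the offset for GC content and length, also with the replicate block. The 2 were CBS2, an activator of cytochrome b translation (-1.15, adjusted p = 3.59e-05), and BCS1, which carries Rip1 across the membrane (-0.55, adjusted p = 0.00617). Of 30 complex IV assembly genes 1 rose (3.33%) and 5 fell (16.7%, again close to all genes), or none and 9 in the fit with the offset, and none and 14 with offset and replicate block. Among those 5 were COX11, which delivers copper (-1.10, adjusted p = 3.39e-04), and the Cox1 translation factors MSS51 (-0.62, adjusted p = 0.00180) and PET309 (-0.79, adjusted p = 0.00500). The 1 that rose, COA3 (0.56, adjusted p = 0.0233), was singled out after its value was seen and was lost with the offset (0.584) and without wild-type replicate 1 (0.0634), wild-type replicate 2 (0.0947) or snf2Δ replicate 2 (0.155).

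Of 14 ATP synthase assembly genes none rose and 5 fell (35.7%, against 17.9% of all genes). Leaving out wild-type replicate 3 gave 8 falls, and leaving out wild-type replicate 2, snf2Δ replicate 1 or snf2Δ replicate 3 gave 3. NCA3, needed for expression of mitochondrial ATP synthase subunits, went from 38.4 ± 2.77 to 8.70 ± 4.27 CPM (log2 fold change -2.14, edgeR adjusted p = 8.45e-06). ATP12, a chaperone of the alpha subunit, had -0.65 (adjusted p = 0.00758) and ATP10, an assembly factor of F0, had -0.89 (adjusted p = 0.0117, or 0.0598 without snf2Δ replicate 1). For the electron carriers, 1 of 11 coenzyme Q genes rose (COQ2, 0.79, adjusted p = 0.00214) and 2 fell (COQ1 at -0.65 and COQ3 at -0.64, adjusted p = 0.00107 and 0.00689), shares of 9.09% and 18.2%. The falls were 4 with the offset, and the rises 2 under upper-quartile scaling. Of 8 heme synthesis genes none rose (1 without wild-type replicate 3) and 2 fell (25.0%), HEM2 (-0.88, adjusted p = 1.10e-04) and HEM3 (-0.69, adjusted p = 0.00134).

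Of 8 other dehydrogenases and carriers around the chain, 5 rose (62.5%, against 16.7% of all genes) and 1 fell (12.5%, against 17.9%). There were 3 rises without wild-type replicate 2 or snf2Δ replicate 2, and 2 falls without snf2Δ replicate 1. GUT2, the glycerol-3-phosphate dehydrogenase that feeds electrons to ubiquinone, rose by 1.46 ± 0.17 on the log2 scale (edgeR adjusted p = 8.58e-06), and DLD1, a D-lactate dehydrogenase that feeds cytochrome c, by 0.92 ± 0.14 (adjusted p = 1.12e-04). AAC1, a minor ADP/ATP carrier, had 14.05, 10.8 and 17.5 CPM in wild type and 68.6, 109 and 63.4 CPM in snf2Δ and rose by 2.50 ± 0.23 (adjusted p = 4.09e-07). The main ADP/ATP carrier PET9 rose by 0.59 ± 0.16 (adjusted p = 0.0111), lost at 0.0591 without wild-type replicate 2 and at 0.0505 without snf2Δ replicate 2.

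Of the phosphate carriers, MIR1, the main one, rose by 0.50 ± 0.19 (edgeR adjusted p = 0.0482). That call was lost without wild-type replicates 1 and 2 and snf2Δ replicates 2 and 3 (adjusted p between 0.121 and 0.207) and in the fit with the offset (0.223). PIC2, which carries copper and phosphate, had 314, 363 and 365 CPM in wild type and 41.7, 47.9 and 41.3 CPM in snf2Δ and fell by 2.99 ± 0.15 (adjusted p = 4.40e-10). Of 5 genes known as targets of the retrograde response to mitochondrial dysfunction, 1 rose (DLD3, 1.36, adjusted p = 1.20e-05) and 1 fell (20.0% each), while CIT2, its usual reporter, ranged from 198 to 479 CPM in snf2Δ and did not pass (0.24, adjusted p = 0.470).

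**Figure D4:**
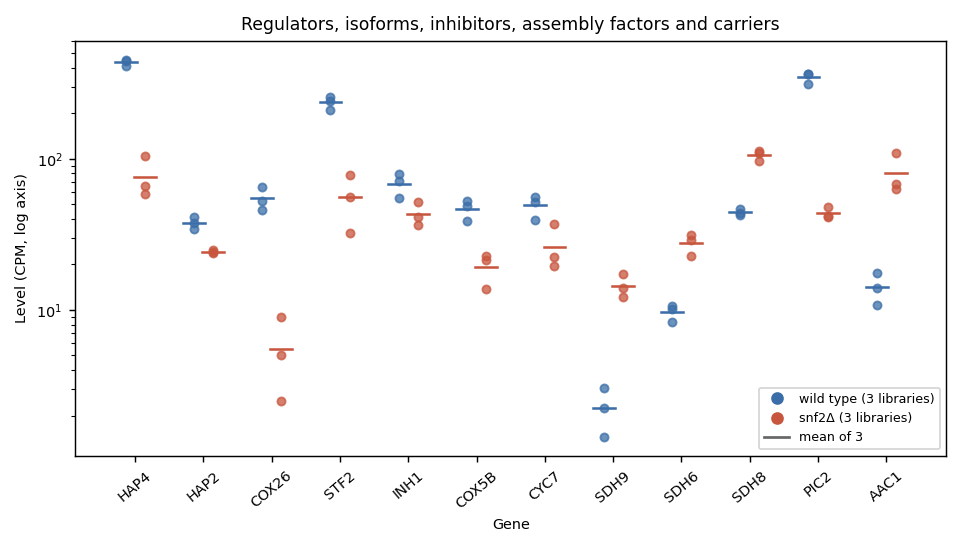
Levels in CPM (log axis) of 12 genes related to the respiratory chain in 3 wild-type libraries (blue) and 3 snf2Δ libraries (red), with lines at the mean of 3. HAP4, COX26, STF2 and PIC2 fall far below wild type in every mutant library, and SDH9 and AAC1 lie far above it.

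The subunits encoded in mitochondrial DNA could not be followed. COB, COX1, COX2, COX3, ATP6, ATP8 and OLI1 held 4 counts in sum over all 6 libraries, so none was tested, and a count of 0 allows 0.481 to 0.746 CPM per library counting error only. Any change in those partners of the nuclear-coded subunits was not detectable in these poly(A)-enriched libraries.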

How the data were processed

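RNA from 3 wild-type and 3 snf2Δ samples was sequenced, and groups came from the labels. Per the submitters' processing notes, bcl2fastq 2.18, STAR 2.7.3a and RSEM 1.3.0 were used with sacCer3, and the study names Ensembl 98. The authors deposited raw whole-number read counts per feature, not normalized and with replicates not pooled. The sources used here do not give whether counting used strand. The labels name hot phenol extraction, the study's methods a column kit, so the extraction is not settled. Of 7127 features, 6047 matched RefSeq's annotation of R64, which gave names, lengths and windows. Depth was 4134546 to 6708036 counts per library.

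In R 4.3.3, features were kept by filterByExpr and scaled by TMM, and genotype was tested over all features with edgeR 4.0.16 (glmQLFit and glmQLFTest), with Benjamini-Hochberg adjustment and a threshold of 0.05. SE was the size of the log2 fold change divided by the square root of F, and intervals are 95%. SNF2 was left out of the counts of genes. The 3 isoform ratios were compared by two-sided exact permutation. Alternatives were scaling by DESeq2 size factors, by total counts or by the upper quartile, testing with no filter or with at least 10 CPM in 3 libraries, the DESeq2 1.42.0 Wald test, limma-voom (limma 3.58.1), the replicate block, a loess offset for GC content and length (available for 97.5% of features tested), both together, and each library left out. The code was tested on simulated data.

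The 39 genes and the lists around them were written from general knowledge with earlier results of these data known. Named genes are any of the 39, up to 3 genes with the smallest adjusted p of each other list, any of a list of 9 or fewer, and SNF2. COA3 and the ratios between subunits were chosen after their values were seen.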

Additional observations from a re-analysis of the deposited data

How the results depend on the processing

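NDE1, SDH3, COR1, CYT1, COX7 and ATP15 kept their calls under all 16 alternatives, and NDI1, SDH4, COX9 and COX12 lost theirs in 4, 6, 7 and 6 of them. The 6 rises became 10 under upper-quartile scaling, where COX6, COX13, QCR10 and ATP5 joined them and all genes split into 1194 rises and 804 falls in place of 942 and 1010. They became 3, and the 4 falls 7, with the offset for GC content and length, also together with the replicate block. Leaving out 1 library gave 3 to 10 rises and 3 to 6 falls: with wild-type replicate 1 left out 3 and 3, with replicate 2 left out 3 and 5 and with replicate 3 left out 10 and 6, and with snf2Δ replicate 1, 2 or 3 left out 4 and 3, 3 and 4, and 7 and 3. Over all genes the same fits gave 684 to 1188 rises and 742 to 1305 falls, both ends of each range from the fits without snf2Δ replicate 2 and without wild-type replicate 3. Fewer libraries enter each of them, yet counts went down in some and up in others. The causes were not tested. Under at least 10 CPM, NDE2 was not tested.

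Several genes near 0 changed sign, and none passed the test with the changed sign. Under upper-quartile scaling the log2 fold changes were 0.002 for QCR9, 0.004 for COX4, 0.0517 for ATP2, 0.0756 for ATP16, 0.0053 for ATP19 and 0.0452 for ATP20. With the offset they were -0.1284 for QCR7, -0.0002 for COX5A, -0.0016 for COX8, 0.014 for ATP2, -0.0196 for ATP7, -0.0595 for ATP17 and -0.1939 for HAP3. With offset and replicate block they were -0.1305 for QCR7, 0.0199 for ATP2, -0.0232 for ATP7, -0.0583 for ATP17 and -0.1899 for HAP3. ATP16 had 0.0072 with DESeq2 size factors, 0.0011 at 10 CPM or more and 0.0049 in the DESeq2 Wald test, and QCR7 had -0.0027 in limma-voom. Leaving out 1 library gave -0.0875 to 0.1214 for QCR7, -0.1952 to 0.0593 for QCR9, -0.0162 to 0.3681 for RIP1, -0.2212 to 0.1139 for COX4, -0.0624 to 0.2992 for COX8, -0.1431 to 0.0491 for ATP2, -0.1257 to 0.0734 for ATP16, -0.0135 to 0.1556 for ATP4, -0.0015 to 0.209 for ATP7, -0.0413 to 0.2036 for ATP17, -0.2118 to 0.0483 for ATP19, -0.1522 to 0.0479 for ATP20 and -0.187 to 0.5019 for CIT2.

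The isoform ratios did not overlap between the genotypes, so leaving out any 1 library could not reverse their direction and was no check of it. Same-numbered samples had correlated deviations of 0.15, -0.04 and 0.13 (r across genes), so the numbers were not taken as pairs. With the replicate block 6 genes rose and 4 fell as before, and QCR7 had -0.0019. Limits are the 3 libraries a genotype, wild-type replicate 3 standing apart, unknown strand of counting and lengths taken from coding sequence.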
